A study of Rattus norvegicus with 40 samples.

Results

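The following 9 genes of the tumor necrosis factor (TNF) receptor superfamily were measured through diethylnitrosamine (DEN) hepatocarcinogenesis in rat liver: Tnfrsf12a, Tnfrsf21, Tnfrsf11b, Tnfrsf9, Tnfrsf14, Cd40, Tnfrsf1a, Tnfrsf1b and Ltbr. They were taken by symbol, with the death receptor Fas left out of the set, and make up 9 of the 17337 genes in the count tables. Messenger RNA was sequenced in 40 libraries from 24 male Fischer 344 rats, aged 7 weeks at the start. DEN, a liver carcinogen that alkylates DNA after activation in hepatocytes, was injected into the peritoneum each week at 50 mg/kg. Non-tumoral liver (NT) was sampled after 8 and 14 weeks of DEN and at 20 weeks, when the injections had been stopped for 6 weeks, and 2 nodules per rat were sampled at 14 and 20 weeks. Liver of rats without DEN was sampled at the same 3 times. Each group held 4 rats, so the nodule groups held 8 libraries each. NT liver and nodules of a number came from the same rat, and NT liver of this model is chronically injured tissue and not normal liver. Libraries are bulk tissue, in which fewer cells of a type and less RNA per cell cannot be told apart.

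TNF receptors are cell surface proteins that bind ligands of the TNF family as trimers. They signal through adaptor proteins of the TRAF family to the transcription factor NF-kB and to stress kinases, and those with a death domain can also start cell death. In liver they sit on hepatocytes, stellate cells, endothelium and immune cells. Tnfrsf12a is the receptor of the cytokine TWEAK, the product of Tnfsf12, and is known as a gene of injured and regenerating liver and of progenitor cells. Tnfrsf21 is a receptor with a death domain, Tnfrsf11b encodes osteoprotegerin, a secreted decoy for the ligands of Tnfsf11 and Tnfsf10, and Tnfrsf9, Tnfrsf14 and Cd40 are best known as costimulatory receptors of T cells, of lymphoid cells in general and of antigen-presenting cells. Tnfrsf1a and Tnfrsf1b are the receptors of TNF itself, and Ltbr is the receptor of lymphotoxin.

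The sequences upstream of genes that moved in opposite directions are shown to place the measured genes. RefSeq (build GRCr8) gave a promoter for 6 of the 9 genes: Tnfrsf12a, Tnfrsf21, Tnfrsf9, Tnfrsf1a, Tnfrsf1b and Ltbr. The 250 bases before the start are given for 4 of them, 5′ to 3′ on the strand of the gene, with matches to the GC box GGGCGG or the AP-1 motif TGANTCA, on either strand, in capitals. The windows are chr10:13213649-13213898 (minus strand) for Tnfrsf12a, chr9:25451324-25451573 (minus strand) for Tnfrsf21, chr4:159836869-159837118 (plus strand) for Tnfrsf1a and chr5:162387412-162387661 (minus strand) for Tnfrsf1b.
Tnfrsf12a: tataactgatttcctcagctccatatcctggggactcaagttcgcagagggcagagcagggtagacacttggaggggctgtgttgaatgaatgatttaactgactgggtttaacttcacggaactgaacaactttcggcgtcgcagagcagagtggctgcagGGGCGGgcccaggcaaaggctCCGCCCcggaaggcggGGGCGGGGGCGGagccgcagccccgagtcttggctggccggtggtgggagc
Tnfrsf21: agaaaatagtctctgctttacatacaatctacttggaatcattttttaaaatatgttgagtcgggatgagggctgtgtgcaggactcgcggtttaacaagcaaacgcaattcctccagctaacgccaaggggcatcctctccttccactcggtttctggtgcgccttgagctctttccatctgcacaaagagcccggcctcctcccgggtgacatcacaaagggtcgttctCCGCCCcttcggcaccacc
Tnfrsf1a: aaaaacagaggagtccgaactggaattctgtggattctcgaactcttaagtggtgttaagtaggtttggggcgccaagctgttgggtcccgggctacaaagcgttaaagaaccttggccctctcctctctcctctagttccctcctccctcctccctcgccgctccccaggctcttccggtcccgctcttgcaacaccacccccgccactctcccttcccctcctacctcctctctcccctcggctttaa
Tnfrsf1b: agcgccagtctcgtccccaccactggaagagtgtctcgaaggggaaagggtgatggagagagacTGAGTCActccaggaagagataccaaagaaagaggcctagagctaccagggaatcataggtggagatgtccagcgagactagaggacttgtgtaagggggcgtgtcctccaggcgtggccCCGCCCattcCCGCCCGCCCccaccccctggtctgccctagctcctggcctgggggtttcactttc
The GC box occurred 4 times upstream of Tnfrsf12a, 3 times upstream of Tnfrsf1b, where 2 of the matches overlap, 2 times upstream of Ltbr and 1 time upstream of Tnfrsf21. No match to it lay upstream of Tnfrsf1a or Tnfrsf9. Of all 27457 promoters in the table, 32.4% held a GC box in the same window. The AP-1 motif lay upstream of Tnfrsf1b, a motif that 6.36% of all promoters hold in this window, and the NF-kB consensus had no match in any of the 6 windows, against 4.27% of all promoters. A match is a stretch of letters and not a shown binding site.

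Between 20528515 and 160622633 read pairs were counted per library (median 30477421), and the deepest, NT liver of rat H26 at 20 weeks, held 4.08-fold the pairs of the next. At the median depth a gene at 1 CPM (CPM is the count relative to library size, scaled by TMM over all 40 libraries) had 30.5 counts. The 7 hepatocyte markers summed to 123062 to 283929 CPM in every rat and tissue, and none of these markers was at 0 in any group, so that the defining genes of liver were present throughout. Rats carry numbers starting with F or H in the labels, without a stated meaning, and every no DEN rat is an H rat. Results were therefore repeated with H rats alone, and at 14 weeks this is the same as leaving out rat F06. At 8 weeks it leaves H17 and H18 as the only NT rats.

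Against no DEN liver of the same week, most of the 9 genes changed with DEN, and the directions split by receptor. At 14 weeks 6 genes rose in NT liver (Tnfrsf12a, Tnfrsf21, Tnfrsf11b, Tnfrsf9, Tnfrsf14 and Cd40) and 3 fell (Tnfrsf1a, Tnfrsf1b and Ltbr), at an adjusted p of at most 0.05 in the quasi-likelihood test of edgeR. Among all 11016 genes tested there, 29.4% were higher and 24.9% lower. The median log2 fold change was 0.96 for the 9 genes and 0.02 for all genes. At 8 weeks 5 rose and 0 fell, against 19.8% higher and 15.4% lower of all genes, with medians of 0.91 and -0.01. At 20 weeks 5 rose and 1 fell, against 16.7% and 10.9%, with medians of 0.61 and 0.02. Nodules at 14 weeks had 5 genes higher and 3 lower than no DEN liver, against 27.4% and 23.3% of all genes, with medians of 1.15 and 0.00. In nodules at 20 weeks 4 were higher and 2 lower, against 28.2% and 24.4%, with medians of 0.28 and 0.01. With H rats alone 6 were higher and 0 lower in NT liver at 8 weeks (15.2% and 10.4% of all genes), 4 and 3 at 14 weeks (30.9% and 27.5%) and 4 and 0 at 20 weeks (14.1% and 9.64%). In nodules of H rats 5 were higher and 3 lower at 14 weeks (34.4% and 30.7% of all genes) and 4 and 2 at 20 weeks (27.7% and 23.6%). The comparisons of 1 week share their no DEN rats, so their values are given side by side and not as independent evidence.

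**Figure D1:**
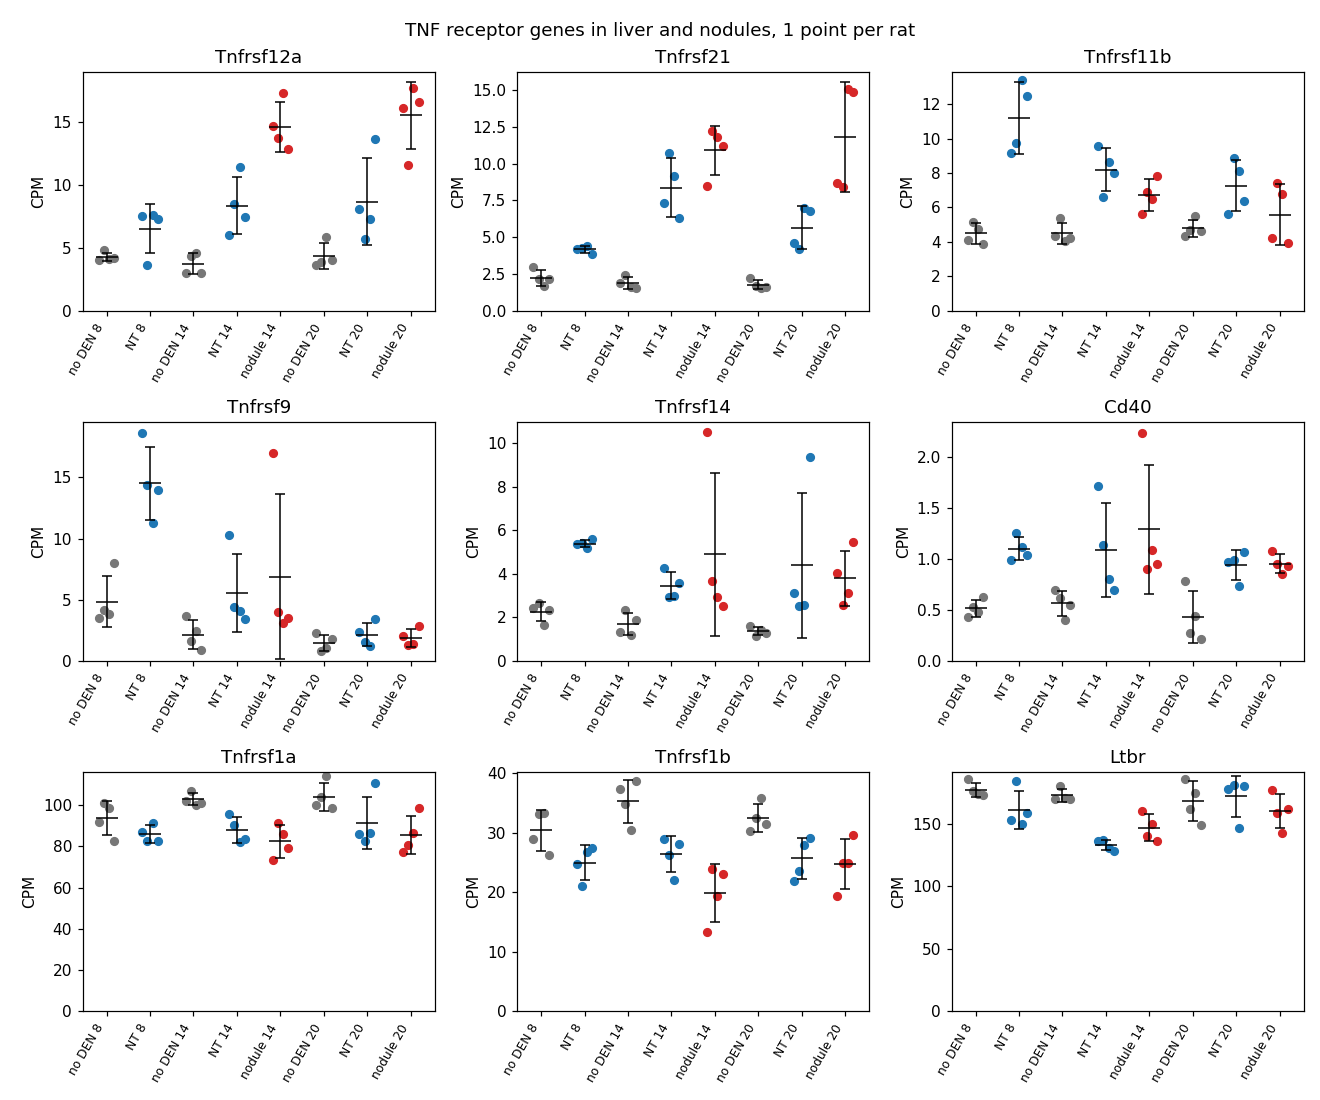
CPM of the 9 receptor genes (vertical axis of each panel, from 0) in the 8 groups (horizontal axis, weeks), with 1 point per rat, nodules as the mean of 2 per rat, and black bars for mean and SD (n = 4 rats). Grey is no DEN liver, blue NT liver and red nodules: Tnfrsf12a and Tnfrsf21 reach their highest means in nodules, at 15.5 and 11.8 CPM, Tnfrsf9 and Tnfrsf11b in NT liver at 8 weeks, at 14.5 and 11.2 CPM, and Tnfrsf1b has its highest in no DEN liver, at 35.3 CPM.

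**Figure D2:**
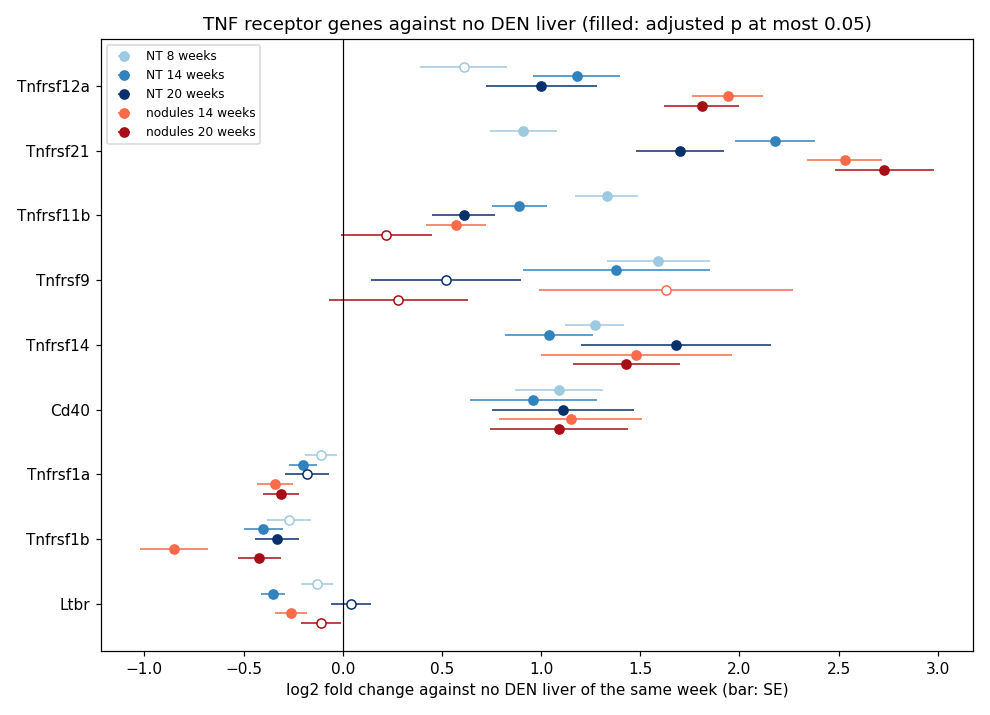
Log2 fold change (horizontal axis, bars are SE) of each receptor gene (vertical axis) against no DEN liver of the same week, in blue for NT liver and red for nodules, with filled points where the adjusted p is at most 0.05. Tnfrsf21 reaches 2.73 and Tnfrsf12a 1.94, while Tnfrsf1b goes down to -0.85.

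Tnfrsf21 had the largest fold of the set by its point estimate in NT liver at 14 and 20 weeks and in nodules. In NT liver at 20 weeks Tnfrsf14 was close behind (1.68 against 1.70), and with H rats alone it was ahead (1.81 against 1.78). In no DEN liver the CPM of Tnfrsf21 was 1.86, 2.44, 1.65 and 1.57 at 14 weeks, and in NT liver of the same week it was 7.32 in F06, 10.7 in H21, 9.18 in H22 and 6.28 in H23. The ranges lie far apart, and the log2 fold change was 2.18 (SE 0.20, adjusted p = 1.79e-05). At 8 weeks NT liver already stood above no DEN liver without overlap, at 4.17 ± 0.232 against 2.24 ± 0.533 (SD, n = 4), a log2 fold change of 0.91 (SE 0.17, adjusted p = 0.00267). At 20 weeks NT liver had 4.64, 4.22, 7.01 and 6.77 CPM in F03, H25, H26 and H28, and no DEN liver 1.52 to 2.2, with a log2 fold change of 1.70 (SE 0.22, adjusted p = 0.000626). The effect at 14 weeks was larger than that at 8 weeks by 1.28 on the log2 scale (SE 0.28, adjusted p = 0.0124, edgeR interaction), and Tnfrsf21 was the only member past the threshold for that change, which 8.96% of all genes passed. That share rested on single rats: it was 16.5% without H17 and 15.6% without F06, and 4.73% to 5.49% without H07, H10, H11, F09 or H21. The Tnfrsf21 value was 1.09 to 1.42 with 1 rat left out, with an adjusted p of at most 0.0302, and its call was lost in a fit of all 8 groups (1.24, adjusted p = 0.0509). Between 14 and 20 weeks the NT effect of Tnfrsf21 changed by -0.47 (SE 0.31) without passing (adjusted p = 0.453).

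Nodules carried the highest mean levels of Tnfrsf21. Their CPM ran from 8.24 to 15.4 in the 8 nodules at 14 weeks and from 6.38 to 17.3 at 20 weeks, against at most 2.44 in no DEN liver of those weeks. Against no DEN liver it was higher by a log2 fold change of 2.53 (SE 0.19, adjusted p = 1.68e-05) at 14 weeks and 2.73 (SE 0.25, adjusted p = 4.64e-05) at 20 weeks. From these values the group order is clear only at its lower end: no rat of any DEN group overlapped a no DEN rat, whereas neighbouring DEN groups overlapped. The biliary and progenitor markers moved alongside. All 6 of 6 measured markers were higher in NT liver at 14 and at 20 weeks and in nodules, and 3 of 6 in NT liver at 8 weeks. Their summed CPM was 18.2 to 26.6 in no DEN liver at 14 weeks, 44.5 to 97 in NT liver and 74.5 to 127 in nodules, with no marker at 0 in any group. At 20 weeks the sums were 20.1 to 25.1 CPM in no DEN liver, 39.7 to 63.3 in NT liver and 84.1 to 193 in nodules. Their part in the values of Tnfrsf21 and of Tnfrsf12a, which is described next, was not tested.

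Tnfrsf12a passed the test in NT liver at 14 and 20 weeks and in nodules of both weeks, and not at 8 weeks. At 8 weeks NT liver had 7.55, 3.61, 7.58 and 7.29 CPM in F09, F10, H17 and H18, and no DEN liver 4.04 to 4.79. Rat F10 lay below every no DEN rat. The log2 fold change of 0.61 (SE 0.22) did not pass (adjusted p = 0.0526), but DESeq2 called it with all rats (0.60, adjusted p = 0.0355). Without F10 the log2 fold change was 0.82 (adjusted p = 0.00115). With H rats alone it was 0.82 (adjusted p = 0.00325), a fit that also leaves out F10 and keeps only NT rats H17 and H18. At 14 weeks NT liver had 5.99, 8.47, 11.4 and 7.47 CPM in F06, H21, H22 and H23, all above the no DEN range of 2.99 to 4.59, and the log2 fold change was 1.18 (SE 0.22, adjusted p = 0.00116). At 20 weeks NT liver had 8.08, 5.66, 7.26 and 13.6 CPM in F03, H25, H26 and H28 against 3.62 to 5.87 in no DEN liver. H25 lay inside the no DEN range. The log2 fold change at 20 weeks was 1.00 (SE 0.28, adjusted p = 0.0249), and its call was lost without no DEN rat H13, H14 or H16 (0.89, 0.95 and 0.93, with adjusted p from 0.0626 to 0.0748).

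Nodules had 14.6 ± 1.98 CPM of Tnfrsf12a at 14 weeks and 15.5 ± 2.69 at 20 weeks (SD, n = 4 rats). All 8 nodules of each week, at 11.4 to 18.1 and 8.89 to 22.8 CPM, exceeded every no DEN liver. Log2 fold changes against no DEN liver were 1.94 (SE 0.18, adjusted p = 4.72e-05) and 1.81 (SE 0.19, adjusted p = 9.6e-05). The ligand of this receptor was measured as well. Tnfsf12 rose in NT liver at 8 weeks by 0.57 on the log2 scale (adjusted p = 0.00312) and at 14 weeks by 0.29 (adjusted p = 0.0241), and was higher in nodules at 14 weeks by 0.45 (adjusted p = 0.0156). At 20 weeks its log2 fold changes of 0.39 in NT liver and 0.31 in nodules did not pass (adjusted p = 0.0787 and 0.133). Its level was 10.4 ± 0.59 CPM in no DEN liver and 14.4 ± 2.39 CPM in nodules at 14 weeks (SD, n = 4).

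Within a rat, the nodules were set against their own NT liver. Across all 11466 genes at 14 weeks no gene passed the threshold (0% called, edgeR, 1348 genes at an unadjusted p of at most 0.05), and no member did, without or with the rat as replicate block. DESeq2 called 1 member, Tnfrsf12a, at 14 weeks (log2 fold change 0.80, adjusted p = 0.0448), where 0.129% of all genes were higher and 0.468% lower. By direction alone, Tnfrsf12a was higher in 8 of 8 nodules than in the NT liver of the same rat, by ratios of 1.46 to 2.85. Rat means were 12.8 to 17.3 CPM in nodules and 5.99 to 11.4 CPM in NT liver, which do not overlap, with a log2 fold change of 0.79 (SE 0.19, adjusted p = 0.404) and, with the replicate block, 0.81 (SE 0.13, adjusted p = 0.167). Tnfrsf1b was lower in 8 of 8 nodules at 14 weeks, by ratios of 0.379 to 0.934, and did not pass (log2 fold change -0.42, SE 0.18, adjusted p = 0.414). The lowest ratio was that of nodule 1 of F06 (11 against 28.9 CPM). Without F06 the log2 fold change was -0.22 (SE 0.11, adjusted p = 0.39). The 8 nodules came from 4 rats, and both nodules of a rat were set against the same NT library. Counts of 8 of 8 are therefore not 8 independent comparisons. How many of all genes were higher or lower in every nodule was not counted.

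At 20 weeks the same comparison called no gene of 11546 in edgeR without the block (0%, 2767 genes at an unadjusted p of at most 0.05). Without rat H25 it called 257 genes higher and 194 lower, none of them a member. DESeq2 called Tnfrsf12a and Tnfrsf21 (adjusted p = 0.0325 and 0.00512), where 5.68% of all genes were higher and 3.45% lower. With the rat as replicate block 13.6% of all genes were higher and 15.7% lower, and 3 members were called, Tnfrsf21 and Tnfrsf12a higher and Tnfrsf11b lower. Tnfrsf21 was higher in 8 of 8 nodules than in their own NT liver, by ratios of 1.37 to 2.55, with a paired log2 fold change of 1.04 (SE 0.10, adjusted p = 1.05e-05) against 1.04 (SE 0.25, adjusted p = 0.0984) without pairing. Tnfrsf12a was higher in 7 of 8 nodules, all but nodule 1 of H28 (10.3 against 13.6 CPM), with a paired value of 0.87 (SE 0.14, adjusted p = 0.00174) and an unpaired value of 0.82 (adjusted p = 0.12). The other nodule of H28 had 22.8 CPM. Nodule counts at this time again rest on 4 rats, and such counts were not made over all genes. Biliary and progenitor markers were also higher in the nodules of each rat than in its NT liver at 20 weeks, at 51.9 and 124 CPM in F03, 39.7 and 84.1 in H25, 58.5 and 176 in H26 and 63.3 and 193 in H28 (NT liver first). Their part in both paired values was not tested. Tnfrsf11b was lower in 7 of 8 nodules, all but nodule 2 of H25, with a paired value of -0.41 (SE 0.11, adjusted p = 0.0171) and an unpaired value of -0.39 (adjusted p = 0.36). The change of the nodule effect from 14 to 20 weeks passed the threshold for no member, and 0.0862% of all genes passed it.

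**Figure D3:**
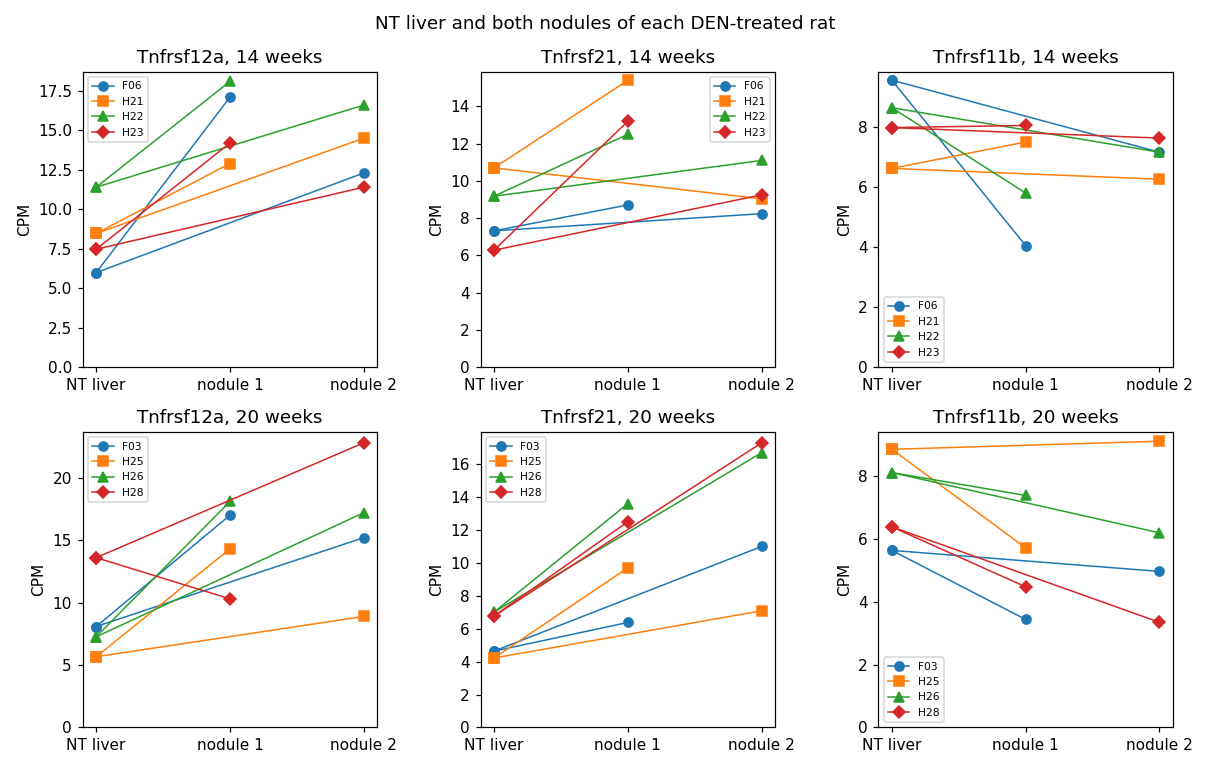
CPM (vertical axis, from 0) of Tnfrsf12a, Tnfrsf21 and Tnfrsf11b in NT liver and in nodule 1 and nodule 2 of each DEN-treated rat, joined by lines, at 14 weeks (top) and 20 weeks (bottom). Lines go up for Tnfrsf12a in 8 of 8 and 7 of 8 nodules and for Tnfrsf21 in 7 of 8 and 8 of 8. They go down for Tnfrsf11b in 6 of 8 and 7 of 8. The 8 nodules of a week come from 4 rats.

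Tnfrsf11b was highest in NT liver after 8 weeks of DEN. It had 9.14, 9.72, 13.4 and 12.5 CPM in F09, F10, H17 and H18 and 3.89 to 5.18 CPM in no DEN liver, ranges that do not overlap. Its log2 fold change in NT liver was 1.33 (SE 0.16, adjusted p = 0.000212) at 8 weeks, 0.89 (SE 0.14, adjusted p = 0.000377) at 14 weeks and 0.61 (SE 0.16, adjusted p = 0.0177) at 20 weeks. The call at 20 weeks was lost without no DEN rat H16 (0.56, adjusted p = 0.0642). The change of the effect from 8 to 14 weeks was -0.44 (SE 0.22, adjusted p = 0.212). With H rats alone it was -0.74 (adjusted p = 0.0328), where 568 of 11400 genes were higher and 518 lower. That fit keeps only H17 and H18 of the NT rats at 8 weeks, the highest of that group. Nodules at 14 weeks had 6.7 ± 0.929 CPM against 4.49 ± 0.6 in no DEN liver (log2 fold change 0.57, SE 0.15, adjusted p = 0.0107). Nodules at 20 weeks had 3.92 to 7.42 CPM per rat, which overlaps the no DEN range of 4.36 to 5.48 (log2 fold change 0.22, SE 0.23, adjusted p = 0.456). Of 8 stellate cell and fibroblast markers, 7 were higher and 1 lower in NT liver at 8 weeks, 6 and 1 at 14 weeks and 4 and 1 at 20 weeks. Nodules had 5 higher and 1 lower in both weeks, including week 20, when Tnfrsf11b did not pass. Their summed CPM was 382 to 510 in NT liver and 220 to 263 in no DEN liver at 8 weeks. At 14 weeks it was 396 to 514 in NT liver, 444 to 516 in nodules and 215 to 274 in no DEN liver. At 20 weeks it was 260 to 280 in NT liver, 295 to 355 in nodules, where paired Tnfrsf11b was lower than in NT liver, and 184 to 240 in no DEN liver. No marker was at 0, and their part in the Tnfrsf11b values was not tested.

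Osteoprotegerin binds the products of Tnfsf10 and Tnfsf11. Tnfsf10, the gene of the death ligand TRAIL, rose in NT liver at 14 weeks from 2.24 ± 0.434 to 6.99 ± 0.956 CPM (log2 fold change 1.66, SE 0.16, adjusted p = 1.79e-05). It was also higher in NT liver at 20 weeks (0.93, adjusted p = 0.00348) and in nodules at 14 and 20 weeks (1.15 and 0.83, adjusted p = 0.00388 and 0.00397), and did not pass in NT liver at 8 weeks (0.57, adjusted p = 0.0564). Tnfsf11 is listed at 0 in 40 of 40 libraries. Whether the counting could register this gene was not tested, so the 0 is not read as a level.

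The costimulatory receptors Tnfrsf9, Tnfrsf14 and Cd40 rose together in NT liver at 8 weeks. Tnfrsf9 had 18.6, 14.4, 11.3 and 14 CPM in F09, F10, H17 and H18, and 3.48, 4.13, 3.8 and 7.99 CPM in the no DEN rats H05 to H08. All 4 no DEN rats lay below the lowest NT rat, and the log2 fold change was 1.59 (SE 0.26, adjusted p = 0.00125). Tnfrsf14 had 5.2 to 5.58 CPM in NT liver and 1.64 to 2.64 CPM in no DEN liver (log2 fold change 1.27, SE 0.15, adjusted p = 0.000215). Cd40 had 0.987 to 1.25 CPM against 0.43 to 0.627 (log2 fold change 1.09, SE 0.22, adjusted p = 0.00332). The T and NK cell markers were higher too at 8 weeks, in 6 of 7 genes, with a summed 11.2 to 14.2 CPM in NT liver and 5.08 to 7.6 in no DEN liver, and both tested B cell markers and 3 of 3 tested neutrophil markers were higher. B cell markers summed to 1.93 to 2.52 against 0.571 to 1.46 CPM and neutrophil markers to 9.06 to 19.1 against 1.52 to 3.39, with no marker at 0 over a group. Of 6 macrophage markers 1 was higher and 1 lower, with sums of 507 to 672 against 377 to 714 CPM, and of 6 endothelial markers 5 were higher, with sums of 193 to 204 against 96.3 to 157 CPM. The part of these cells in the 3 receptors was not tested.

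Tnfrsf9, a receptor induced on activated T cells and NK cells, had lower means at later weeks in treated and untreated rats alike. In no DEN liver its mean CPM was 4.85 ± 2.11, 2.15 ± 1.17 and 1.47 ± 0.659 at 8, 14 and 20 weeks (SD, n = 4), and in NT liver 14.5 ± 3.02, 5.54 ± 3.18 and 2.14 ± 0.952. These weeks were not tested against each other. At 14 weeks NT liver had 10.3 CPM in F06, 4.37 in H21, 4.12 in H22 and 3.4 in H23, against 3.65, 1.61, 2.42 and 0.923 in the no DEN rats H09 to H12. The ranges overlap at H23 and H09, and F06 stands apart. Its log2 fold change of 1.38 (SE 0.47, adjusted p = 0.0362) was 0.89 (adjusted p = 0.0586) without F06, which is the value with H rats alone. The call was also lost without H21 (1.48, adjusted p = 0.0527) and without no DEN rat H10, H11 or H12 (1.27, 1.44 and 1.12, with adjusted p from 0.07 to 0.0849). At 20 weeks the log2 fold change in NT liver was 0.52 (SE 0.38, adjusted p = 0.336).

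Rat F06 also stood apart in its nodules at 14 weeks. Tnfrsf9 had 20.4 and 13.6 CPM in the nodules of F06 and 2.72 to 4.85 CPM in the other 6 nodules. The log2 fold change against no DEN liver was 1.63 (SE 0.64, adjusted p = 0.0598), and 0.70 without F06 (adjusted p = 0.105). It passed without H22 or H23 (1.88 and 1.86, adjusted p = 0.0443 and 0.0459). In nodules at 20 weeks Tnfrsf9 had 1.27 to 2.85 CPM per rat, with a log2 fold change of 0.28 (SE 0.35, adjusted p = 0.53).

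Tnfrsf14, the herpesvirus entry mediator, showed the same rat apart. NT liver at 14 weeks had 4.27 CPM in F06 and 2.94, 2.98 and 3.6 in H21, H22 and H23, all above the no DEN range of 1.21 to 2.35, and the log2 fold change was 1.04 (SE 0.22, adjusted p = 0.00238). Nodules of F06 had 12.9 and 8.07 CPM, and the other 6 nodules 2.17 to 4.62. Against no DEN liver the log2 fold change in nodules was 1.48 (SE 0.48, adjusted p = 0.0289), and 0.84 without F06 (adjusted p = 0.00528). The call was lost without no DEN rat H09, H11 or H12 (1.38, 1.34 and 1.53, with adjusted p from 0.0598 to 0.0798). At 20 weeks NT liver had 3.14, 2.52 and 2.55 CPM in F03, H25 and H26 and 9.35 in H28, above no DEN liver at 1.16 to 1.62. That week's log2 fold change of 1.68 (SE 0.48, adjusted p = 0.0286) was 0.99 (adjusted p = 0.00824) without H28, and the call was lost without any of the 4 no DEN rats H13 to H16 (1.61 to 1.73, with adjusted p from 0.0531 to 0.079). Nodules at 20 weeks had 2.58 to 5.47 CPM per rat and a log2 fold change of 1.43 (SE 0.27, adjusted p = 0.00179).

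Cd40, the receptor through which T cells license antigen-presenting cells, had the fewest counts of the set, and its values rest on few reads. NT liver at 14 weeks had 1.72 CPM in F06 and 1.14, 0.804 and 0.697 in H21, H22 and H23, against 0.404 to 0.693 in no DEN liver, so that H23 only just cleared the no DEN range. Its fold change in NT liver on the log2 scale was 0.96 (SE 0.32, adjusted p = 0.0263), and 0.65 without F06 (adjusted p = 0.0604). The call was further lost without H21 (0.94, adjusted p = 0.0556) and without no DEN rat H10, H11 or H12 (1.00, 0.83 and 0.94, with adjusted p from 0.0504 to 0.079). At 20 weeks NT liver had 0.735 to 1.07 CPM, which overlaps the no DEN range of 0.219 to 0.784. The NT value of 1.11 (SE 0.36, adjusted p = 0.0407) lost its call without any of F03, H25, H28, H14, H15 or H16, with values of 0.85 to 1.11 and adjusted p from 0.0691 to 0.129. Nodules were higher at 14 weeks (1.15, SE 0.36, adjusted p = 0.0242) and 20 weeks (1.09, SE 0.35, adjusted p = 0.0231). Those calls were lost without H10, H11 or H12 at 14 weeks (1.01 to 1.19, with adjusted p from 0.0525 to 0.0719) and without H14, H15 or H16 at 20 weeks (0.85 to 1.10, with adjusted p from 0.0546 to 0.075).

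Markers of other cells moved with the calls of Tnfrsf14 and Cd40 at 14 and 20 weeks too. Of the T and NK cell markers tested, 3 of 5 were higher in NT liver and 4 of 7 in nodules at 14 weeks, with sums of 6.19 to 12.2 and 6 to 16.2 CPM against 4.42 to 5.88 in no DEN liver. At 20 weeks 3 of 6 were higher in NT liver and 4 of 7 in nodules (7.48 to 12.2 and 6.64 to 10.7 against 3.96 to 6.61 CPM). Of 6 endothelial markers 5 were higher in all 4 of these comparisons, with sums of 174 to 243 CPM per rat in NT liver and nodules against 65.2 to 163 in no DEN liver. Neutrophil markers were higher in 3 of 3 tested in NT liver and 1 in nodules at 14 weeks, and in 2 and 0 at 20 weeks. Macrophage markers were higher in 1 of 6 in NT liver and 2 in nodules in both weeks, and 0 of 2 tested B cell markers passed in any of them. Their part in the receptor values was not tested.

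Immune markers of F06 stood apart in the same tissues. In NT liver at 14 weeks the T and NK cell markers summed to 12.2 CPM in F06 and 6.19 to 8.98 in H21 to H23, the neutrophil markers to 15.9 against 4.82 to 5.27, and the macrophage markers to 705 against 277 to 360. In nodules the sums were 16.2 against 6 to 8.1, 30.6 against 3.91 to 5.1, and 611 against 288 to 357. B cell markers summed to 2.51 CPM in nodules of F06 and 0.627 to 0.721 in the others, and in NT liver to 1.08 against 0.715 to 1.17. The libraries of these nodules also differed from the rest, with 34.5% and 28.2% of all pairs outside annotated exons in nodules 1 and 2 against at most 26.3% in any other library, and nodule 1 had the fewest counted pairs of all libraries (20528515). NT liver of F06 lay within the range of the others on both measures. The part of these cells and of these library differences in the receptor values of F06 was not tested. In NT liver of H28 at 20 weeks, where Tnfrsf14 was 9.35 CPM, T and NK cell markers summed to 12.2 CPM against 7.48 to 10.1 in the other 3 rats. The other immune lists of H28 did not stand above those rats, with macrophage markers at 413 CPM against 341 to 630, B cell markers at 1.33 against 0.907 to 1.94 and neutrophil markers at 6.45 against 7.09 to 12.

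**Figure D4:**
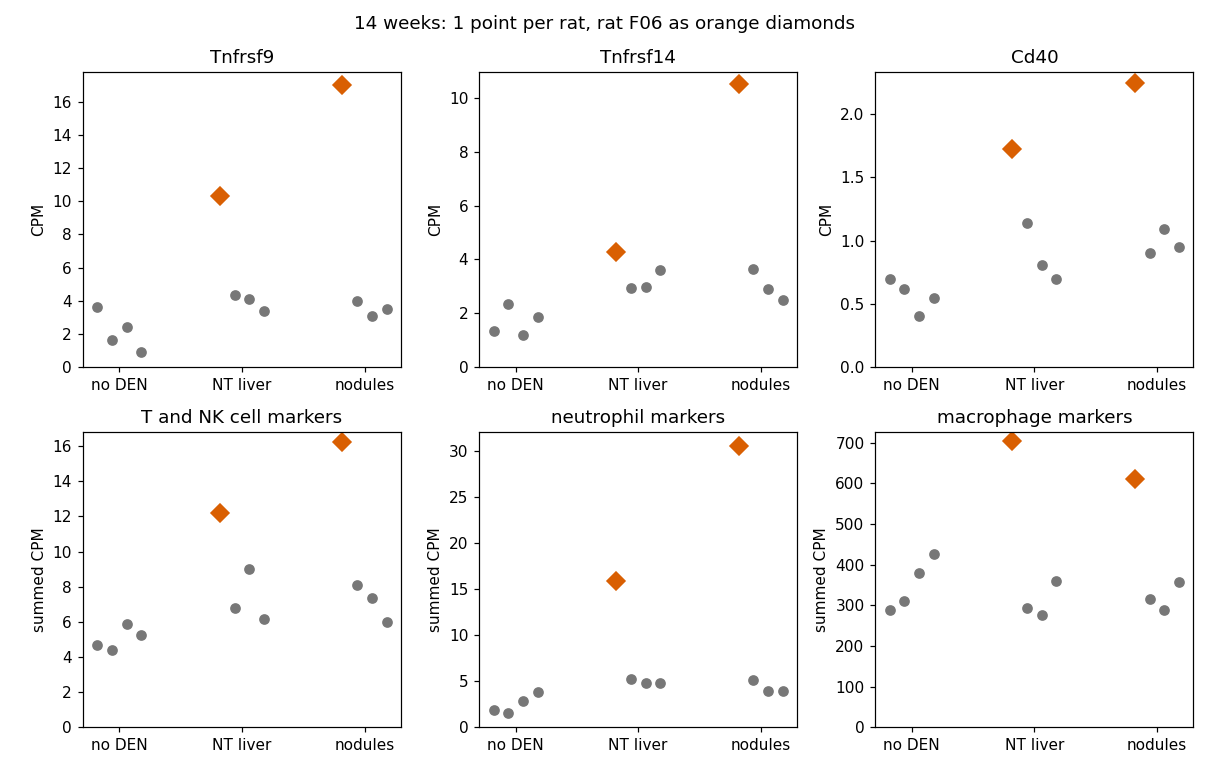
CPM of Tnfrsf9, Tnfrsf14 and Cd40 (top) and summed CPM of T and NK cell, neutrophil and macrophage markers (bottom) at 14 weeks, with 1 point per rat in no DEN liver, NT liver and nodules (mean of 2), on axes from 0. Rat F06, the orange diamond, is the highest point of its group in all 6 panels.

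The receptors of TNF were lower with DEN wherever they passed the test, and by less than 1 on the log2 scale. Tnfrsf1a, which carries the death domain, had 100 to 107 CPM in no DEN liver at 14 weeks and 95.7, 90.4, 82.2 and 83.8 CPM in NT liver of F06, H21, H22 and H23. The ranges do not overlap, and the log2 fold change was -0.20 (SE 0.07, adjusted p = 0.0239). This call was lost without H10, H22 or H23 (-0.18, -0.17 and -0.18, with adjusted p from 0.0575 to 0.0711). It fell in nodules by 0.34 on the log2 scale at 14 weeks (SE 0.09, adjusted p = 0.00893) and by 0.31 at 20 weeks (SE 0.09, adjusted p = 0.018, and 0.056 without no DEN rat H15). In NT liver at 8 and 20 weeks the values of -0.11 and -0.18 did not pass (adjusted p = 0.312 and 0.242), although at 20 weeks the value was -0.29 (adjusted p = 0.0311) without H28, the highest NT rat at 111 CPM.

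Tnfrsf1b, the TNF receptor without a death domain, had 37.3, 34.8, 30.4 and 38.7 CPM in no DEN liver at 14 weeks. NT liver of that week had 28.9, 26.2, 22.1 and 28.2 CPM in F06, H21, H22 and H23, and nodules 13.3, 23.9, 19.3 and 23.1 CPM as means of these rats. Neither range reached the no DEN range. The log2 fold change was -0.40 (SE 0.10, adjusted p = 0.00544) in NT liver and -0.85 (SE 0.17, adjusted p = 0.00332) in nodules. At 20 weeks it was -0.42 in nodules (SE 0.11, adjusted p = 0.00758) and -0.33 in NT liver (SE 0.11, adjusted p = 0.0418). The NT call at 20 weeks was lost with H rats alone, without H14, H15, H16, F03 or H25, and in the fit of all 8 groups, with values of -0.26 to -0.38 and adjusted p from 0.0547 to 0.0946. At 8 weeks the value was -0.27 (adjusted p = 0.0811), and -0.34 without no DEN rat H08 (adjusted p = 0.042).

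Ltbr, which drives the non-canonical arm of NF-kB, had 170, 180, 171 and 170 CPM in no DEN liver at 14 weeks and 136, 137, 131 and 128 in NT liver of F06, H21, H22 and H23. The groups do not overlap, at 173 ± 5.15 against 133 ± 4.21 CPM (SD, n = 4), with a log2 fold change of -0.35 (SE 0.06, adjusted p = 0.000576). Nodules of that week had 136 to 160 CPM per rat (-0.26, SE 0.08, adjusted p = 0.0245), a call lost without H10, H21, H22 or H23 (-0.21 to -0.25, with adjusted p from 0.0555 to 0.0775). At 8 and 20 weeks NT liver and no DEN liver overlapped (-0.13 and 0.04, adjusted p = 0.221 and 0.801), as did nodules at 20 weeks (-0.11, adjusted p = 0.4). The change of the NT effect from 14 to 20 weeks was 0.40 (SE 0.11, adjusted p = 0.0989), where 0.738% of all genes passed. It passed in DESeq2 (0.38, adjusted p = 0.0425) and without H26 (0.47, adjusted p = 0.0175), where 3.6% of all genes passed. The share of all genes was also 3.41% without F06 and 2.07% without H28, and 0.274% to 0.423% without H10, H11, H21, H22, F03 or H25. From 8 to 14 weeks the change was -0.23 (adjusted p = 0.13), which passed in DESeq2 (-0.24, adjusted p = 0.049) and without NT rat H17 (-0.29, adjusted p = 0.0389), where 16.5% of all genes passed. Of 7 hepatocyte markers, 5 were lower and 1 higher in NT liver and in nodules at 14 weeks, with summed CPM of 149040 to 193113 in NT liver and 130929 to 160469 in nodules against 239051 to 271932 in no DEN liver. In nodules at 20 weeks 6 were lower and 1 higher (123062 to 187631 against 245637 to 283929 CPM). In NT liver at 20 weeks 1 was lower and 1 higher, and the sums of 185408 to 253832 CPM overlapped those of no DEN liver. Their part in the values of Tnfrsf1a, Tnfrsf1b and Ltbr was not tested.

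Seen over all 8 groups, the span between the highest and the lowest group mean was 9.92-fold for Tnfrsf9, 6.68-fold for Tnfrsf21, 4.15-fold for Tnfrsf12a, 3.95-fold for Tnfrsf14, 3.01-fold for Cd40 and 2.5-fold for Tnfrsf11b. It was 1.77-fold for Tnfrsf1b, 1.33-fold for Ltbr and 1.26-fold for Tnfrsf1a. When the groups were put in order of their means, neighbours were apart without overlap in 3 of the 9 genes, beside 21.4% of all 11660 expressed genes: Tnfrsf21 (NT liver at 8 weeks above no DEN liver at 8 weeks), Tnfrsf14 (NT liver at 14 weeks above no DEN liver at 8 weeks) and Cd40 (NT liver at 20 weeks above no DEN liver at 14 weeks). For Tnfrsf21 this gap separated all DEN rats from all no DEN rats. For Tnfrsf14 and Cd40 groups further apart in the order still overlapped. Tnfrsf14 in nodules at 14 weeks (from 2.51 CPM) and in NT liver and nodules at 20 weeks (from 2.52 and 2.58) reached into the range of no DEN liver at 8 weeks (up to 2.64). Cd40 in NT liver at 14 and at 20 weeks (from 0.697 and 0.735 CPM) reached into that of no DEN liver at 20 weeks (up to 0.784). Neighbours in the order of the other 6 genes overlapped in their ranges.

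The genes whose pattern was most like each member were found by Spearman correlation of log2 CPM over the 32 values of rats and tissues, among 11659 genes. The values share rats, treatment and weeks, so the coefficients describe these libraries only. Tnfrsf21 was closest to Anxa2 (0.970), Itpr3 (0.969) and Spint1 (0.966), and Tnfrsf12a to Aldoa (0.918), RT1-M5 (0.916) and S100b (0.913). Tnfrsf14 was closest to Ciita (0.948), the master regulator of MHC class II genes, Map4k1 (0.946) and RT1-Bb (0.939), an MHC class II gene. Cd40 lay nearest to Fes (0.897), Arhgef2 (0.896) and Dennd1c (0.889), Tnfrsf9 to Slc23a3 (0.814), Taf9b (0.791) and Ska2 (0.761), and Tnfrsf11b to Il17rd (0.867), Emilin1 (0.859) and Col14a1 (0.843), a collagen gene. The nearest gene of Tnfrsf1a was Tnfrsf1b (0.865), followed by Mta2 (0.824) and Nub1 (0.811). Tnfrsf1b was nearest to Eprs (0.876), Plxna2 (0.868) and Hnf4a (0.867), a hepatocyte transcription factor, and Ltbr to B4galt7 (0.832), Mrpl14 (0.823) and Sdf2 (0.821). Among the members themselves, Tnfrsf12a and Tnfrsf21 had a coefficient of 0.856, Tnfrsf14 and Cd40 of 0.801, and Tnfrsf1b and Cd40 of -0.715.

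Of 16 TNF family ligands in the files, 4 had enough counts to be tested in NT liver at 14 weeks, of which 3 rose and 1 fell, where 29.4% of all genes rose and 24.9% fell. Tnf, the ligand of Tnfrsf1a and Tnfrsf1b, is listed at 0 in 40 of 40 libraries, and as for Tnfsf11 this is not read as a level, since whether the counting could register it was not tested. Counts appeared in 12 of 40 libraries for Lta (at most 2), in 7 for Ltb (at most 1) and in 16 for Cd40lg, the ligand of Cd40 (at most 2). Tnfsf9, the ligand of Tnfrsf9, reached 0.817 CPM and Tnfsf14, a ligand of Tnfrsf14 and Ltbr, 0.143 CPM, and neither passed the filter for testing. Tnfsf13, a ligand of B cell receptors, rose in NT liver at 8 and 14 weeks (1.18 and 0.55, adjusted p = 8.2e-05 and 0.0025) and in nodules at 14 weeks (0.42, adjusted p = 0.0181), and did not pass at 20 weeks in NT liver or nodules (0.40 and 0.27, adjusted p = 0.121 and 0.234). Eda, the ligand of ectodermal development, fell at 14 weeks by 0.62 on the log2 scale in NT liver and by 0.85 in nodules (adjusted p = 0.0356 and 0.0119). Its values at 20 weeks were 0.08 and -0.13 (adjusted p = 0.825 and 0.681) and at 8 weeks -0.36 (adjusted p = 0.387).

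Of the other receptors of the family, 15 were in the files and 9 could be tested in NT liver at 14 weeks, with 5 higher and 1 lower, beside the same 29.4% and 24.9% of all genes. Fas rose from 5.56 ± 0.527 to 19.1 ± 0.272 CPM at 14 weeks (log2 fold change 1.80, SE 0.08, adjusted p = 3.63e-07) and by 1.51 and 0.75 at 8 and 20 weeks (adjusted p = 2.44e-05 and 0.00296). Cd27, a receptor of lymphocytes, rose by 2.24 at 14 weeks (SE 0.52, adjusted p = 0.00409) from a level of 0.125 CPM, at 0 to 6 counts per no DEN library. Tnfrsf26 rose by 1.11 (SE 0.27, adjusted p = 0.00556). The other two that rose were Tnfrsf10b, a receptor of TRAIL, and Relt (0.97 and 0.77, adjusted p = 0.000648 and 0.037). The receptor that fell was Edar, the receptor of ectodermal development, which like Tnfrsf10b and Relt was named after its values were seen. Edar had 3.52 ± 1.08 CPM in NT liver and 6.84 ± 0.591 in no DEN liver at 14 weeks (SD, n = 4), a log2 fold change of -0.93 (SE 0.20, adjusted p = 0.00236). It was also lower in NT liver at 8 and 20 weeks (-1.48 and -1.02, adjusted p = 0.00367 and 0.0207) and in nodules at 14 and 20 weeks (-1.85 and -1.96, adjusted p = 0.000104 and 0.000152).

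Downstream, 19 adaptors and kinases were tested, with 5 higher and 5 lower in NT liver at 14 weeks (29.4% and 24.9% of all genes) and 8 higher and 3 lower in nodules at 20 weeks (28.2% and 24.4% of all genes). Map3k14, the kinase that starts the non-canonical NF-kB arm, was higher in NT liver at 8, 14 and 20 weeks (0.39, 0.45 and 0.76, adjusted p = 0.0403, 0.0354 and 0.00125) and in nodules at 14 and 20 weeks (0.65 and 0.94, adjusted p = 0.00215 and 0.000166). Birc3, an inhibitor of apoptosis bound to TRAF proteins, rose in NT liver at 14 weeks by 0.61 (adjusted p = 0.00235), and Map3k7, a kinase upstream of canonical NF-kB, fell by 0.49 (adjusted p = 0.0255). Birc3 passed in all other comparisons with no DEN liver but NT liver at 20 weeks (0.43, adjusted p = 0.111), and Map3k7 in none of them (-0.26 to 0.17). Of the 9 NF-kB subunits and inhibitors tested, 3 rose and 1 fell in NT liver at 14 weeks, again beside 29.4% and 24.9% of all genes. Nfkb2, the subunit processed in the non-canonical arm, was higher in all 5 comparisons with no DEN liver, from 0.29 (adjusted p = 0.0394) in NT liver at 8 weeks to 1.02 (adjusted p = 7.27e-05) in nodules at 20 weeks. Bcl3, a nuclear partner of NF-kB subunits, and Nfkb1 rose in NT liver at 14 weeks (0.61 and 0.25, adjusted p = 0.00756 and 0.0168). Bcl3 was also higher in nodules at 14 and 20 weeks (0.87 and 0.85, adjusted p = 0.000869 and 0.0034) but did not pass in NT liver at 8 or 20 weeks, and Nfkb1 passed in no other of these comparisons. The gene that fell was Nfkbib, an inhibitor (-0.24, adjusted p = 0.0203), named after its values were seen, and it passed in no other comparison with no DEN liver. The 4 pathway lists had median log2 fold changes of 0.42 (ligands), 0.77 (other receptors), 0.07 (adaptors and kinases) and 0.17 (NF-kB genes) in that comparison, beside 0.02 for all genes.

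**Figure D5:**
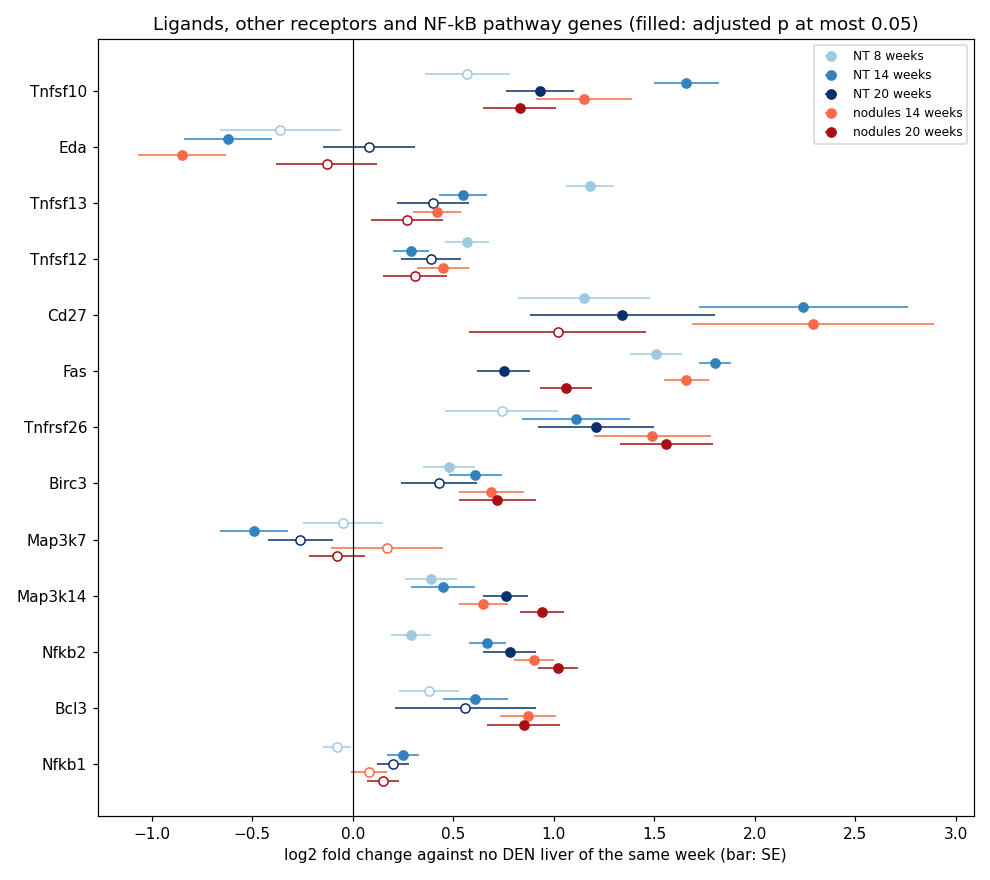
Log2 fold change against no DEN liver of the same week (horizontal axis, bars are SE) for 13 ligands, other receptors and NF-kB pathway genes (vertical axis), in blue for NT liver and red for nodules, with filled points where the adjusted p is at most 0.05. Nfkb2 and Map3k14 are filled on the right in all 5 comparisons, Cd27 reaches 2.29 and Eda goes down to -0.85. Cd27 had only 0 to 6 counts per no DEN library at 14 weeks.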

How the data were processed

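The deposited values are unnormalised counts of read pairs per gene, with each library in a table of its own. Per the study's methods, stranded mRNA libraries (15 PCR cycles, 75 bp paired ends) were aligned to rn6 with STAR 2.7.1a and counted with HTSeq over exons on the reverse strand, dropping pairs that matched several places, so near-identical genes are undercounted. The 5 summary lines of each file stayed out of library sizes. Pairs outside annotated exons were 21.5% to 34.5%. Counts carry no molecular identifiers.

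Counts of both nodules of a rat were added. The 2 groups compared were filtered with filterByExpr, scaled by TMM and tested with the robust quasi-likelihood test of edgeR 4.0.16 (R 4.3.3, 2-sided, Benjamini-Hochberg over all genes tested). The script was checked on simulated counts first. Fold changes are log2, and the SE is derived from the F statistic. CPM used 1 TMM scaling over 40 libraries. Replicates of a group differed by at least 12.9 times the sampling noise (chi-square per degree of freedom, 92 pairs). NT liver and nodules come from the same rat, and their deviations from the group means correlated by 0.367 to 0.538 at 14 weeks and 0.47 to 0.537 at 20 weeks. Correlations added 0.5 CPM before the log2. The text names the 9 members, the 3 genes most correlated with each, ligands of members, Fas, and per pathway list the 3 largest called changes in NT liver at 14 weeks. Members and lists were chosen with earlier results of these data known, so they give no independent support. Promoters are from RefSeq (GRCr8), and no gene coordinates of rn6 were used here. Alternatives were DESeq2 1.42.0, RLE scaling, no filter, a fit of all 8 groups, H rats alone, each rat left out, each nodule alone, the rat as replicate block and the study's thresholds.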

Additional observations from a re-analysis of the deposited data

Results flagged for a closer look

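In 11 of 72 groups (9 genes in 8 groups of 4 rats) the highest or lowest rat lay past Dixon's critical value at 95%. The nominal share for independent groups is about 5%. The 9 genes share their rats, and the share over all genes was not counted, so the number is not read as a trait of these genes. Rat F06 at 14 weeks accounts for 4 of the 11 groups: Tnfrsf9 at 10.3 CPM in NT liver and 17 CPM in nodules, Tnfrsf14 at 10.5 CPM in nodules and Cd40 at 2.24 CPM in nodules, each the highest of its group. H28 was the highest NT rat at 20 weeks for Tnfrsf14 (9.35 CPM) and Tnfrsf1a (111 CPM), and H26 the lowest for Ltbr (147 CPM). F10 was the lowest NT rat at 8 weeks for Tnfrsf12a (3.61 CPM). Among no DEN rats, H08 was the highest for Tnfrsf9 at 8 weeks (7.99 CPM), H10 for Ltbr at 14 weeks (180 CPM) and H15 for Tnfrsf12a at 20 weeks (5.87 CPM). The causes were not tested.

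The effect of DEN on Tnfrsf21 in NT liver differed between 8 and 14 weeks by 1.28 on the log2 scale (edgeR interaction, adjusted p = 0.0124), with the DEN rats above every no DEN rat at both times. A change between these weeks passed in 8.96% of all genes. The Tnfrsf21 call was lost in the fit of all 8 groups (1.24, adjusted p = 0.0509).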

How the results depend on the processing

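Depth limits the low genes most: Cd40 had 0.219 to 0.784 CPM in no DEN liver, from 5 to 19 counts. Of 1420 repeats of a member's value under the alternatives, 1298 kept direction and side of the threshold, 57 lost a call, 23 gained 1 and 42 turned direction. None of those that turned had passed the threshold, before or after. RLE scaling changed no call and no direction. The causes were not tested.

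The study's methods give fold limits of 2 for NT liver at 8 and 14 weeks and 0.5 for nodules without naming the scale. With 2 taken as linear (1 on the log2 scale, adjusted p of at most 0.01) and 0.5 as log2 (at most 0.05), 3 members were higher and 0 lower in NT liver at 14 weeks (13.1% and 2.1% of all genes), 1 and 0 at 20 weeks (4.89% and 0.333%), and 1 was lower in nodules at 14 weeks and 0 at 20 weeks (15.2% of all genes in both) against no DEN liver. At 8 weeks Tnfrsf9, Tnfrsf14, Tnfrsf11b and Cd40 were higher in NT liver by these limits and no member was lower (7.29% and 0.62% of all genes). The members higher in nodules stayed the same as without a fold limit (23.9% and 23.6% of all genes at 14 and 20 weeks). With 2 read as log2, a reading added after seeing the data, 1 member, Tnfrsf21, was higher in NT liver at 14 weeks (4.77% of all genes), 0 were higher at 8 and 20 weeks (1.81% and 1.73%), and 0 were lower. In NT liver at 20 weeks 0 members were lower in the fit of all 8 groups and with H rats alone. Nodule 1 alone gave 0 members lower in nodules at 20 weeks, where the calls of Tnfrsf1a (-0.34, adjusted p = 0.0694) and Tnfrsf1b (-0.45, adjusted p = 0.158) were lost, and ended the call of Tnfrsf11b in nodules at 14 weeks (0.51, adjusted p = 0.102). Nodule 2 alone ended that of Cd40 in nodules at 20 weeks (0.96, adjusted p = 0.0777). Tnfrsf9 lost its call in NT liver at 14 weeks without the filter on low counts (1.37, adjusted p = 0.0575) and gained one in nodules at 14 weeks in DESeq2 (1.62, adjusted p = 0.0141), in the fit of all 8 groups (1.65, adjusted p = 0.00566) and with nodule 2 alone (1.56, adjusted p = 0.0283).

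For nodules against NT liver, DESeq2 called 1 member higher at 14 weeks and 2 at 20 weeks, and the fit of all 8 groups 2 at 20 weeks. The rat as replicate block called 2 higher and 1 lower at 20 weeks and changed no call at 14 weeks. Over all genes DESeq2 called 13 higher and 47 lower at 14 weeks, and 696 and 423 at 20 weeks, the fit of all 8 groups 1014 and 708 at 20 weeks, nodule 1 alone 117 and 122, and the block 1570 and 1808. The change of the NT effect from 8 to 14 weeks called 0 members higher in the fit of all 8 groups, and 1 lower in DESeq2 (Ltbr) and with H rats alone (Tnfrsf11b). From 14 to 20 weeks DESeq2 called 1 higher (Ltbr). All genes called for these changes went from 1005 to 691 higher and 838 lower (DESeq2) or 53 and 98 (all 8 groups) from 8 to 14 weeks, and from 83 to 182 and 199 (DESeq2), 17 and 24 (all 8 groups) or 92 and 90 (H rats) from 14 to 20 weeks. For nodules from 14 to 20 weeks they went from 10 to 5 and 24 (DESeq2), 3 and 13 (all 8 groups) or 1 and 4 (nodule 1).

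Leaving out each rat in turn gave 0 to 1 members lower in NT liver at 8 weeks, 1 to 5 higher and 0 to 2 lower at 20 weeks, 3 to 6 higher in nodules at 14 weeks, 1 to 2 lower in nodules at 20 weeks against no DEN liver, 0 to 1 lower for the change from 8 to 14 weeks and 0 to 1 higher for that from 14 to 20 weeks. The fewest higher in NT liver at 20 weeks came without H16, where all genes higher went from 1805 to 1068, and the 3 in nodules at 14 weeks without H11 or H12. All genes lower in NT liver at 8 weeks went from 1669 to 1002, 1112 and 1097 without H07, F09 and H18, and the 10 genes of the change of the nodule effect to 6 without H11, H14, H16, F03 or H25. Directions turned within these ranges: Ltbr in NT liver at 20 weeks -0.05 to 0.11; nodules against NT liver at 14 weeks Tnfrsf9 -0.19 to 0.40 and Tnfrsf14 -0.08 to 0.70, both turning without F06, and at 20 weeks Tnfrsf14 -0.37 to 0.20 and Cd40 -0.09 to 0.08. The change of the NT effect from 8 to 14 weeks ran from -0.69 to 0.17 for Tnfrsf9 and -0.43 to 0.00 for Cd40, and from 14 to 20 weeks from -0.04 to 0.85 for Tnfrsf14, -0.48 to 0.01 for Tnfrsf12a, -0.08 to 0.08 for Tnfrsf1a and -0.08 to 0.61 for Cd40. The change of the nodule effect ran from -0.32 to 0.63 for Tnfrsf14, -0.25 to 0.05 for Tnfrsf12a, -0.03 to 0.08 for Tnfrsf1a and -0.31 to 0.38 for Cd40.

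With H rats alone the values that turned were -0.19 for Tnfrsf9 and -0.08 for Tnfrsf14 in nodules against NT liver at 14 weeks, and 0.60 for Tnfrsf14 and 0.24 for Cd40 in the change of the nodule effect. With nodule 2 alone they were -0.15 for Tnfrsf9 in nodules against no DEN liver at 20 weeks, and 0.00 for Tnfrsf14, 0.01 for Tnfrsf12a and -0.00 for Tnfrsf1a in the change of the nodule effect. With nodule 1 alone they were 0.20 for Tnfrsf9 and 0.18 for Cd40 in nodules against NT liver at 20 weeks, and -0.15 for Tnfrsf21 and 0.02 for Cd40 in the change of the nodule effect. Cd40 in nodules against NT liver at 20 weeks was 0.01 both in DESeq2 and in the fit of all 8 groups.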
